A study of Canis lupus familiaris with 29 samples.

Results

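Wild-type MDCKII cells, an established epithelial line from dog kidney, were compared between the eighth and the fifth day of culture on matrigel, a gel of basement membrane proteins. The comparison rests on 4 of the 29 RNA sequencing libraries of the study: replicates 1 and 2 of 3D day 8 and replicates 2 and 3 of 3D day 5, taken by their titles and with no measured value involved. The cells of all 4 libraries carry no knockdown or other alteration, and their labels differ in time in culture and in replicate number. Day 8 replicate 1 also stands apart in relative depth, as described below. Other wild-type libraries give context: cells at seeding (day 0, n = 4), 3D cultures at 24 h and day 3 (n = 2 each), a single 3D day 14 library, and 2D cultures on transwell inserts at day 4 and day 11 (n = 3 each). The remaining 10 libraries, from cells with a knockdown of DENND5A or AVL9, enter only the estimate of spread.

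Single MDCK cells on matrigel divide and organise into a cyst, a hollow sphere of 1 cell layer whose apical surface lines a lumen and whose basal surface rests on the matrix. Cysts are widely used to study how epithelial cells set up polarity, seal tight junctions and move fluid into a lumen. In the kidney the corresponding cells form tubules, and their apical and basolateral membranes carry different transporters.

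Expression was given as FPKM (fragments scaled to transcript length and library size), and differences are day 8 minus day 5 in log2(FPKM + 1) with their standard error (SE). That scale understates the change of genes with low FPKM. Of 24223 genes, 10696 reached 1 FPKM in at least 2 of the 4 libraries and were tested, 9333 of them with a symbol of their own. Tests were made with limma, called at a Benjamini-Hochberg adjusted p under 0.05. The labels do not say whether replicates came from separate cultures, so p-values measure only how far these samples differ, and that spread may be technical.

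Total FPKM was 367695 and 344055 at day 5 and 417562 and 342541 at day 8. No read counts enter here and the depth in reads is unknown, but the steps between the lowest FPKM values gave depth relative to day 0 replicate 2. It was 1.10 and 0.937 at day 5, 0.539 and 0.980 at day 8 and 0.741 at day 14. Day 8 replicate 1 is thus 1 of 5 wild-type libraries with a relative depth under 0.75, together with day 14 and replicate 1 of day 0, 3D day 3 and 2D day 4. The same libraries stood apart in single genes. Among these were TIMM13, whose product escorts proteins into mitochondria (0 in the 5 libraries, 30.9 to 396.6 FPKM elsewhere), and RPS27L, related to a ribosomal protein (11.6 to 22.3 FPKM in the 5, 0 to 1.37 elsewhere). The AVL9 knockdown libraries at day 0 (replicate 1, relative depth 0.734) and 2D day 4 (replicate 4, 0.535) were also under 0.75. For both genes they lay in the ranges given for elsewhere. Below, low-depth libraries are the 5 wild-type ones. The actin-sequestering thymosin TMSB10 gave 2834 and 1334 FPKM at day 5 but 0 and 1692 at day 8, and its log2 difference went from -5.56 to -0.20 without day 8 replicate 1. In all, 16 genes were listed at 0 in that library and at 5 FPKM or more in the other 3. Each result below was therefore also computed without it.

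The libraries carried kidney epithelial markers and little of other cell types. EPCAM, an epithelial adhesion molecule, had 292.7 and 301.9 FPKM at day 5, against 295.3 and 274.8 at day 8. The kidney transcription factors PAX8 (59.0 and 61.6, then 64.2 and 48.1 FPKM) and PAX2 (20.1 and 21.5, then 22.3 and 19.2) overlapped between the days. MAL, a protein of apical transport, was at 474.5 and 352.0, then 401.9 and 360.2 FPKM. KRT19, a keratin of simple epithelia, was at 460.3 and 429.7 and then 323.1 and 299.7 FPKM (log2 difference -0.51 ± 0.20, adjusted p = 0.401). KRT8 and KRT18 were not analysed here. All 12 leukocyte markers stayed under 1 FPKM in the 4 libraries, 9 of them at 0. Of 11 endothelial markers 10 were under 1 FPKM and 2 at 0, with summed FPKM of 6.79 and 7.67 at day 5 and 5.01 and 4.50 at day 8. Of 13 fibroblast markers 11 were under 1 FPKM and 3 at 0, with sums of 15.8 and 20.0 at day 5 and 24.0 and 17.8 at day 8. Those above 1 FPKM were the VEGF receptor FLT1 (6.31 and 7.23, then 4.38 and 4.12) and, on the fibroblast list, FBLN1, a matrix protein that passed the filter only through day 5 (2.14 and 1.77, then 0.540 and 0.346), and COL5A1, a fibrillar collagen chain (13.6 and 18.3, then 23.0 and 17.4).

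Between day 5 and day 8 the mesenchymal filament gene VIM, the TGF-beta binding protein gene LTBP1 and the surface glycoprotein gene CD109 fell (log2 differences -1.44, -1.34 and -1.19), and each was lower again in the day 14 library. With 1 unnamed gene that rose, these were the only 4 of 10696 genes called (0.0374%; 0.00935% higher and 0.028% lower). At an unadjusted p under 0.05 there were 144 genes higher (1.35%) and 966 lower (9.03%). Day 8 was also lower across most of the transcriptome, with a median log2 difference over all genes of -0.11 and 28.6% of genes above 0. That tilt changed with the scaling: the median was -0.01 under median-ratio scaling, with 47.1% of genes above 0, and the calls were then 2 higher and 5 lower. Under quantile normalization they were 5 higher and 7 lower. It also changed with the library, to -0.18 without day 8 replicate 1 and -0.03 without replicate 2. Both day 8 libraries lay above both day 5 libraries (higher without overlap) for 6.98% of all genes and below them (lower without overlap) for 30.4%. Under median-ratio scaling these shares were 15.7% and 19%, so counts of list members are read against both pairs of shares and medians against the median of all genes. A gene that reached 1 FPKM at only 1 of the days entered the test through that day, which favours a difference in that direction, and this is stated for each such gene named.

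**Figure D1:**
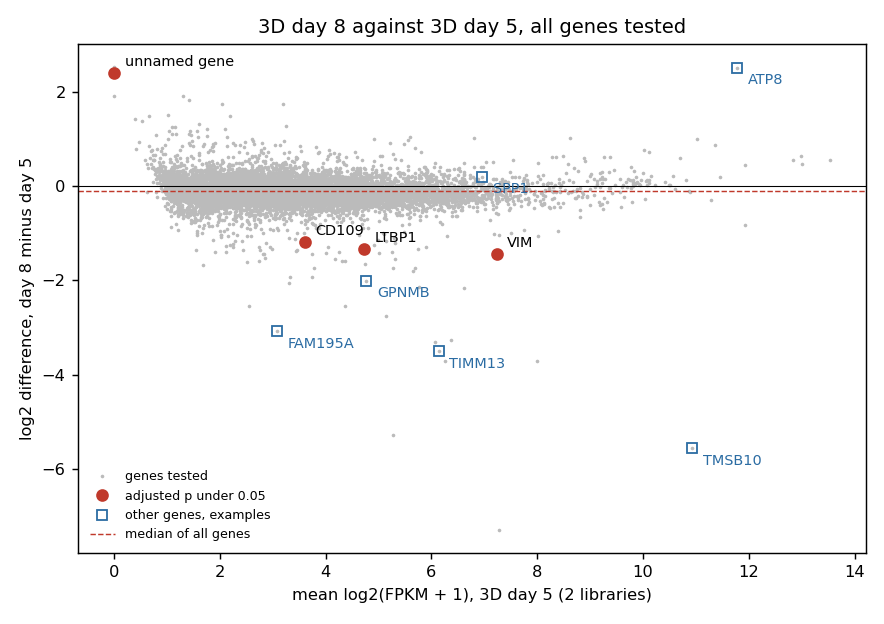
Each grey point is 1 of the 10696 genes tested, at its mean log2(FPKM + 1) over the 2 day 5 libraries (horizontal) and its log2 difference, day 8 minus day 5 (vertical); red marks the 4 genes called and squares mark examples of other genes, and the dashed line is the median of all genes (-0.11). CD109, LTBP1 and VIM lie between -1.19 and -1.44, while larger differences such as those of TMSB10 and TIMM13 belong to genes listed at 0 in day 8 replicate 1.

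VIM encodes vimentin, the intermediate filament protein of mesenchymal and migrating cells. Its FPKM was 181.4 and 122.5 at day 5, 50.04 and 58.82 at day 8 and 29.03 in the day 14 library. Both day 8 libraries lay below both day 5 libraries, and the log2 difference was -1.44 ± 0.23 (adjusted p = 0.0109). VIM had been at 1333 to 1702 FPKM (median 1662) at day 0, at 1344 and 1390 at 24 h and at 361.9 and 453.1 at day 3, so day 5 to 8 continued a descent. In 2D culture it was at 286.2 to 428 FPKM at day 4 and at 543.6 to 557.9 at day 11. Here as for every gene, fewer cells of a type and less RNA per cell cannot be told apart in these bulk samples. The call was lost without day 8 replicate 1 (log2 difference -1.33), without day 5 replicate 2 (-1.16), without the low-depth wild-type libraries (-1.33) and with the 4 libraries fitted alone. Over all alternatives the adjusted p of VIM ran from 0.00253 to 0.387.

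LTBP1 encodes a matrix protein that holds TGF-beta in its latent form. Its FPKM was 26.0 and 24.8 at day 5, 9.80 and 9.11 at day 8 and 5.92 at day 14. The days did not overlap, with a log2 difference of -1.34 ± 0.18 (adjusted p = 0.00165). Earlier levels were 99.5 to 132.7 FPKM at day 0 (median 120.7) and 46.6 and 53.3 at day 3, and the 2D libraries ran from 67.5 to 104.7 at day 4 and from 86.9 to 100.6 at day 11. The call was lost in 3 of 15 alternatives: without day 5 replicate 2, without the low-depth libraries and with the 4 libraries fitted alone (adjusted p from 0.000834 to 0.119 over all).

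CD109 encodes a membrane-anchored glycoprotein known as a TGF-beta co-receptor. It was at 12.1 and 10.3 FPKM at day 5, then 4.38 and 4.31 at day 8 and 2.63 at day 14. This was the difference with the smallest adjusted p (log2 difference -1.19 ± 0.14, adjusted p = 0.000353), and it was called in 14 of 15 alternatives, the exception being the 4 libraries fitted alone (adjusted p from 2.21e-05 to 0.198 over all). Unlike VIM and LTBP1, CD109 was still at 21.2 and 23.5 FPKM at day 3, within the day 0 range of 21.4 to 25.9 or just below it. In 2D culture it was at 14.2 to 19.3 FPKM at day 4 and 14.5 to 17.4 at day 11.

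The gene that rose, ENSCAFG00000030098, has no symbol in the files. It was listed at under 0.001 FPKM in both day 5 libraries, at 6.00 and 2.98 in the day 8 libraries and again at under 0.001 at day 14. It passed the filter on low values only through day 8, so its difference was built into its selection. Its call was lost in 6 of 14 alternatives, leaving out either day 5 library or day 8 replicate 1 among them.

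Another 6 genes had an adjusted p under 0.1 (0.0818 each), and they and the other members described from here on were chosen after their values were seen, apart from the genes that are always reported. GPNMB, a glycoprotein of lysosomes and the cell surface, was at 24.7 and 28.0 FPKM at day 5, then 5.39 and 6.16 at day 8 and 2.78 at day 14 (log2 difference -2.01 ± 0.41). It had been at 78.0 and 73.5 FPKM at day 3, above the 31.0 to 49.1 of day 0. The actin capping protein gene CAPG was at 43.9 and 41.0, then 23.2 and 23.7 FPKM (-0.83 ± 0.16), and unlike GPNMB it stood at 23.8 at day 14. ANXA10, an annexin, was at 19.2 and 12.4, then 5.17 and 6.402 FPKM (-1.29 ± 0.26). The GTPase gene RAB31, which acts in endosomal transport, was at 4.24 and 3.28, then 1.01 and 1.02 FPKM (-1.23 ± 0.25). IGFBP6, which binds insulin-like growth factors, was at 7.26 and 4.52, then 1.15 and 2.27 FPKM (-1.35 ± 0.27). RIMBP2, best known as a scaffold of the presynaptic active zone, was the single gene of the 6 with higher values at day 8, at 0.572 and 0.957, then 2.25 and 1.83 FPKM, and 3.31 at day 14 (0.79 ± 0.16). RIMBP2 passed the filter only through day 8, so its difference was favoured by its selection. None of these 6 overlapped between the days.

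**Figure D2:**
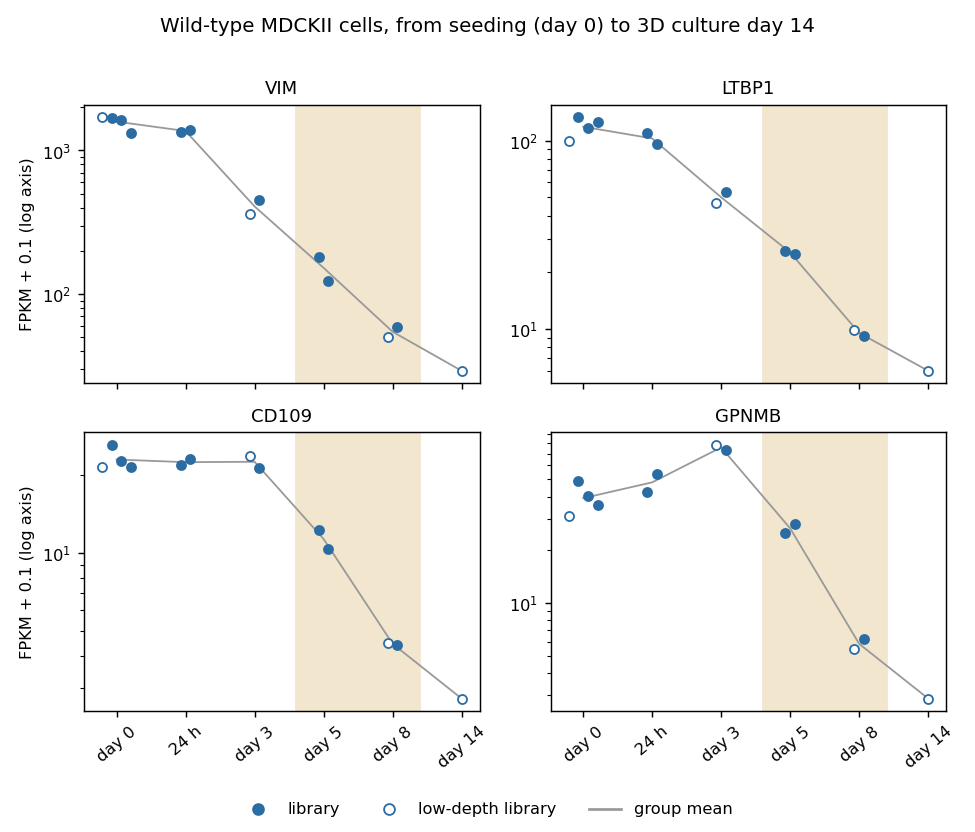
FPKM plus 0.1 on a log axis for VIM, LTBP1, CD109 and GPNMB in each wild-type library from day 0 to 3D day 14; filled points are libraries, open points those of low relative depth, grey lines join group means and the shaded band holds day 5 and day 8. VIM and LTBP1 descend from 24 h to day 14, CD109 and GPNMB only after day 3, and in each panel both day 8 points lie below both day 5 points.

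Members of the mesenchymal list followed VIM in direction. Of 16 such genes 8 were tested, their median log2 difference was -0.87 (-1.04 without day 8 replicate 1, -0.82 under median-ratio scaling), and in 7 both day 8 libraries lay below both day 5 libraries, against 30.4% of all genes (6 under median-ratio scaling). Of these, DCLK1 and SNAI2 passed the filter only through day 5, which favours lower values at day 8. VIM alone was called. S100A4, a calcium-binding protein linked to motility, was at 80.4 and 31.7 FPKM at day 5 and 14.6 and 14.3 at day 8 (-1.74 ± 1.07, adjusted p = 0.558), so its day 5 libraries differed more than its day 8 libraries. DPYSL3, a cytoskeletal regulator, was at 4.55 and 3.34, then 1.47 and 0.951 FPKM (-1.16 ± 0.27, adjusted p = 0.152). The microtubule-associated kinase gene DCLK1 was at 1.24 and 1.38, then 0.247 and 0.174 FPKM (-0.93 ± 0.39). FN1, the matrix protein fibronectin, was at 41.6 and 52.8, then 32.7 and 21.3 FPKM (-0.80 ± 0.30, adjusted p = 0.379). SNAI2, a repressor of epithelial genes, was low at 1.23 and 1.09, then 0.841 and 0.392 FPKM. The collagen cross-linking enzyme LOXL2 (-0.16 ± 0.37) and the matrix glycoprotein THBS1 (-0.17 ± 0.29) lay near the median of all genes, and THBS1 was at 81.7 FPKM at day 14 against 40.7 to 54.5 at days 5 and 8.

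No mitosis gene passed the test, but their values lay to 1 side. All 23 tested had a log2 difference below 0, from -0.64 to -0.03, with a median of -0.49 against -0.11 for all genes. In 20 of 23 both day 8 libraries lay below both day 5 libraries, against 30.4% of all genes. Under median-ratio scaling this held for 18, against 19% of all genes. With all 4 libraries 9 had an unadjusted p under 0.05, against 9.03% of all genes. MKI67, the Ki-67 proliferation marker, was at 7.99 and 6.57 FPKM at day 5, then 5.76 and 3.16 at day 8 and 4.02 at day 14 (-0.64 ± 0.31, adjusted p = 0.482). The topoisomerase gene TOP2A was at 23.1 and 17.3, then 13.8 and 11.8 FPKM (-0.61 ± 0.30). The spindle midzone protein gene PRC1 was at 12.4 and 9.13, then 6.68 and 6.84 FPKM (-0.59 ± 0.20, adjusted p = 0.349), and TPX2, which nucleates spindle microtubules, at 7.57 and 5.45, then 4.18 and 3.44 FPKM (-0.63 ± 0.26). The 3 whose days overlapped were CCNB2, a mitotic cyclin (-0.40 ± 0.32), the spindle checkpoint kinase gene TTK (-0.03 ± 0.20) and CDK1, the mitotic kinase. CDK1 was at 75.5 and 34.1 FPKM at day 5 and 48.4 and 46.6 at day 8 (-0.10 ± 0.30), inside the day 5 spread. The summed FPKM of the list was 384.3 and 242.4 at day 5 and 232.4 and 212.5 at day 8, so day 5 replicate 2 stood highest. Without that library the list's median was -0.25, without day 8 replicate 1 it was -0.50.

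Other cell cycle groups showed less. Of 26 DNA replication genes tested none was called, their median was -0.17, and 8 were lower without overlap, close to the 30.4% of all genes. Under median-ratio scaling 2 were lower and 3 higher, against 19% and 15.7% of all genes (median -0.06). Of 9 CDK inhibitors and D cyclins none was called (median -0.19). CCND1, the cyclin D1 gene of G1 entry, was at 7.16 and 7.14 FPKM at day 5 and 7.06 and 7.47 at day 8 (0.02 ± 0.24). CCND2, its paralog, was at 10.2 and 12.9, then 4.02 and 7.97 FPKM (-0.90 ± 0.30, adjusted p = 0.331, and -0.48 without day 8 replicate 1). The CDK inhibitor CDKN1A was at 3.51 and 3.01, then 4.21 and 2.16 FPKM (-0.07 ± 0.33), the groups overlapping. CDKN1B was at 10.2 and 9.67, then 12.3 and 11.5 FPKM (0.24 ± 0.16, adjusted p = 0.596). CDKN1C was not analysed here.

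Cytoskeletal and adhesion genes mostly stood lower at day 8, with no call besides VIM. Of 32 actin and contractility genes tested, 15 were lower without overlap, against 30.4% of all genes, and none higher (median -0.30; -0.39 without day 8 replicate 1, -0.19 under median-ratio scaling), and 11 had an unadjusted p under 0.05, against 9.03% of all genes. Under median-ratio scaling 10 were lower without overlap, against 19% of all genes. ACTN1, an actin cross-linker, was at 19.3 and 22.5, then 13.6 and 11.7 FPKM (-0.69 ± 0.18, adjusted p = 0.203). Tropomyosin gene TPM4 was at 45.0 and 40.4, then 24.2 and 31.7 FPKM (-0.61 ± 0.17), and the actin cross-linker FLNA at 27.3 and 26.3, then 21.6 and 15.7 FPKM (-0.52 ± 0.16). ACTG1, cytoplasmic gamma-actin, was at 580.0 and 644.7, then 581.8 and 447.1 FPKM, its groups overlapping. Of 14 intermediate filament and tubulin genes, 7 were lower without overlap, against 30.4% of all genes and with the same count under median-ratio scaling (median -0.28).

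Among 24 integrin and focal adhesion genes 13 were lower without overlap and 1 higher, against 30.4% and 6.98% of all genes (median -0.28). Under median-ratio scaling 12 were lower and 2 higher, against 19% and 15.7% of all genes. ITGA2, a collagen-binding integrin subunit, was at 63.7 and 78.2 FPKM at day 5, then 42.5 and 40.5 at day 8 and 56.3 at day 14 (-0.75 ± 0.16, adjusted p = 0.102). CD44, the hyaluronan receptor, was at 132.8 and 142.4, then 79.9 and 87.7 FPKM, with 91.5 at day 14 (-0.71 ± 0.17, adjusted p = 0.152). ITGA6, a laminin-binding subunit found in hemidesmosomes, was at 5.30 and 5.62, then 4.20 and 2.89 FPKM (-0.52 ± 0.19). COL17A1, the transmembrane collagen of hemidesmosomes, was at 26.4 and 26.9, then 16.1 and 12.0 FPKM (-0.89 ± 0.23, adjusted p = 0.203), from 72.8 and 59.3 at day 3. ITGB6, a subunit of the integrin that activates latent TGF-beta, was the member higher without overlap, at 17.7 and 18.3, then 21.8 and 19.9 FPKM, and 27.9 at day 14 (0.20 ± 0.18, adjusted p = 0.712). In all, 3 of the 24 had a log2 difference above 0.

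Basement membrane and matrix genes included members with higher and with lower values. Of 24 tested 4 were higher and 8 lower without overlap, the latter near the share of all genes (6.98% higher, 30.4% lower), with a median of -0.28 that moved to -0.49 without day 8 replicate 1, and none was called. Under median-ratio scaling 4 were higher, near the 15.7% of all genes, and 7 lower, against 19%. The type IV collagen chains, the network formers of basement membranes, were among those with higher values. COL4A1 was at 3.56 and 5.56 FPKM at day 5, then 11.1 and 6.74 at day 8 and 15.1 at day 14 (0.82 ± 0.46, adjusted p = 0.523). COL4A2 was at 1.84 and 3.08, then 6.02 and 3.46, with 10.7 at day 14 (0.72 ± 0.46). EFEMP1, a matrix protein of the fibulin family, was at 5.63 and 6.69, then 15.1 and 8.80, with 29.2 at day 14 (0.82 ± 0.61). In all of them day 8 replicate 1 was the higher of its pair, and without it the differences were 0.50, 0.39 and 0.46. PODN, a small leucine-rich matrix proteoglycan, was at 39.2 and 53.4, then 68.9 and 55.7 FPKM, with 100.2 at day 14 (0.43 ± 0.44). COL18A1 (0.10 ± 0.43) and the heparan sulfate proteoglycan AGRN (0.03 ± 0.21) overlapped between the days.

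Most junction genes named here stood lower or overlapped. Of 22 adherens junction and desmosome genes tested 14 were lower and 1 higher without overlap, against 30.4% and 6.98% of all genes and with the same counts under median-ratio scaling (median -0.31; -0.20 under median-ratio scaling), and 10 had an unadjusted p under 0.05, against 9.03% of all genes. CDH1, E-cadherin of adherens junctions, was at 93.9 and 95.9 FPKM at day 5, then 73.8 and 60.2 at day 8 and 97.3 at day 14 (-0.50 ± 0.19, adjusted p = 0.375). Its partner CTNNA1, alpha-catenin, was at 152.2 and 149.2, then 129.4 and 107.8 FPKM (-0.35 ± 0.13), and CTNNB1, beta-catenin, at 686.1 and 669.9, then 678.9 and 551.6 FPKM (-0.15 ± 0.17). The desmosomal cadherin DSC3 was at 4.48 and 4.03, then 2.53 and 2.13 FPKM (-0.66 ± 0.17, adjusted p = 0.203). CDH16, the kidney-specific cadherin, was the member with higher values: 7.81 and 9.53 FPKM, then 12.72 and 10.50, and 16.17 at day 14 (0.38 ± 0.41, adjusted p = 0.753).

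For 12 tight junction scaffold and occludin family genes the median was -0.17 and 7 were lower without overlap, against 30.4% of all genes. Under median-ratio scaling the median was -0.06, with 4 lower and 3 higher, against 19% and 15.7% of all genes. TJP1, the scaffold ZO-1, was at 17.3 and 17.8, then 15.4 and 10.6 FPKM, with 18.6 at day 14 (-0.42 ± 0.14, adjusted p = 0.326). OCLN, occludin, was at 31.0 and 29.3, then 26.5 and 24.1 FPKM, and the adhesion molecule gene F11R at 122.5 and 130.5, then 104.4 and 91.1. Both lay below day 5 in each day 8 library and back at 30.9 and 123.5 FPKM at day 14. Of 8 claudins 3 were lower and 1 higher without overlap, against 30.4% and 6.98% of all genes (2 and 1 under median-ratio scaling, against 19% and 15.7%). CLDN2, which forms a paracellular cation pore, was at 106.9 and 111.4, then 142.6 and 92.6 FPKM (0.07 ± 0.34), its day 8 libraries on either side of day 5. CLDN1, a sealing claudin, was at 57.5 and 73.6, then 47.2 and 45.8 FPKM (-0.48 ± 0.28). In the 15 polarity complex genes 9 were lower without overlap and none higher, against 30.4% and 6.98% of all genes (median -0.23). Among the 9 was PARD3, an organiser of the apical junction (8.25 and 7.67, then 7.07 and 5.56 FPKM, -0.30 ± 0.13, adjusted p = 0.412). Under median-ratio scaling 6 polarity genes were lower, against 19% of all genes.

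Several apical and transport genes had higher values at day 8, though none was called. In each of them named below, day 8 replicate 1, of low relative depth, was the higher of its pair. In 19 apical membrane and lumen genes 3 were higher and 6 lower without overlap, the latter close to the 30.4% of all genes (median -0.14, near that of all genes). Under median-ratio scaling 5 were higher and 1 lower without overlap, against 15.7% and 19% of all genes. The list's median was then -0.04, against -0.01 for all genes, and 12 of the 19 lay below 0. Without day 8 replicate 1 it was -0.19, against -0.18 for all genes. PDZK1, a scaffold that anchors transporters under the apical membrane, was at 194.9 and 176.8 FPKM at day 5, then 322.8 and 229.7 at day 8 and 452.7 at day 14 (0.55 ± 0.99, adjusted p = 0.858). Its partner gene PDZK1IP1 was at 264.1 and 253.0, then 339.8 and 266.5, with 438.8 at day 14 (0.22 ± 0.21). For PDZK1IP1, day 8 replicate 2 thus lay close to the day 5 libraries. CD24, a glycan-bearing surface protein, was at 53.03 and 40.4, then 162.6 and 51.8 FPKM (0.97 ± 0.60, and 0.16 without day 8 replicate 1). PODXL, the sialomucin of the apical surface, was at 55.3 and 68.1, then 55.1 and 49.7 FPKM (-0.23 ± 0.29, adjusted p = 0.794), and the membrane linker EZR at 242.4 and 246.6, then 221.4 and 216.9 (-0.16 ± 0.17).

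Of 25 tubular ion and water transport genes 2 were higher and 11 lower without overlap, against 6.98% and 30.4% of all genes (median -0.12). Under median-ratio scaling 9 were higher and 8 lower, against 15.7% and 19% of all genes. The list's median was -0.22 without day 8 replicate 1 and 0.04 without replicate 2, against -0.18 and -0.03 for all genes. FXYD2, the gamma subunit of the sodium pump, was at 179.8 and 113.2 FPKM, then 216.9 and 189.5, and 268.5 at day 14 (0.50 ± 0.68, adjusted p = 0.805). ATP1B1, the beta subunit of that pump, had lower values at day 8, at 255.3 and 233.1, then 203.1 and 155.1 FPKM (-0.46 ± 0.20, adjusted p = 0.448). CFTR, the apical chloride channel of fluid secretion, overlapped between the days at 1.30 and 1.71, then 3.29 and 1.68 FPKM, with 5.91 at day 14. AQP5, a water channel, also overlapped (9.61 and 10.2, then 15.2 and 9.47 FPKM). CA2, carbonic anhydrase 2, stayed abundant at 1698 and 1883, then 2053 and 1860 FPKM, with 2610 at day 14 (0.13 ± 0.29).

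Of 23 organic solute and ABC transporter genes 3 were higher and 8 lower without overlap, against 6.98% and 30.4% of all genes (median -0.17). Under median-ratio scaling 4 were higher and 7 lower, against 15.7% and 19%. The list's median was -0.33 without day 8 replicate 1 and -0.01 without replicate 2, against -0.18 and -0.03 for all genes. SLC22A2, the basolateral organic cation transporter of the kidney, was at 13.5 and 18.3 FPKM, then 32.6 and 23.3, and 40.7 at day 14 (0.77 ± 0.38, adjusted p = 0.489). ABCB1, the P-glycoprotein drug exporter, was at 7.88 and 9.93, then 17.2 and 13.5, and 47.9 at day 14 (0.72 ± 0.21, adjusted p = 0.290). ABCB1 had a low point of 5.78 and 5.94 FPKM at day 3. SLC5A1, the sodium-glucose cotransporter SGLT1, was at 0.753 and 0.968, then 2.88 and 1.49, and 5.43 at day 14 (0.74 ± 0.17, adjusted p = 0.152), and it passed the filter only through day 8. The glucose carrier SLC2A1 had lower values, 46.2 and 57.1, then 37.6 and 35.6 FPKM (-0.48 ± 0.25).

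With all 4 libraries, kidney and epithelial transcription factors were centred on the median of all genes (39 tested, median -0.10, none called). Without overlap 2 were higher and 11 lower, against 6.98% and 30.4% of all genes. Under median-ratio scaling 5 were higher and 8 lower, against 15.7% and 19%. The list's median was -0.29 without day 8 replicate 1 and 0.10 without replicate 2, against -0.18 and -0.03 for all genes. EMX2, a homeobox factor of kidney development, was at 0.446 and 0.330 FPKM at day 5, then 2.37 and 1.11 at day 8 and 5.41 at day 14 (0.94 ± 0.20, adjusted p = 0.102), and it too passed the filter only through day 8. HNF4A, a factor of proximal tubule differentiation, was at 14.6 and 15.5, then 23.1 and 12.2 FPKM, on either side of day 5. GATA3, a factor of the collecting duct, was at 9.23 and 9.91, then 7.13 and 6.28 FPKM (-0.46 ± 0.18), and the epithelial repressor gene OVOL2 at 4.59 and 3.88, then 3.19 and 2.12 (-0.53 ± 0.17, adjusted p = 0.308). Of segment markers, 4 proximal tubule, 6 thick ascending limb and distal tubule and 8 collecting duct genes were tested, and none was called.

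**Figure D3:**
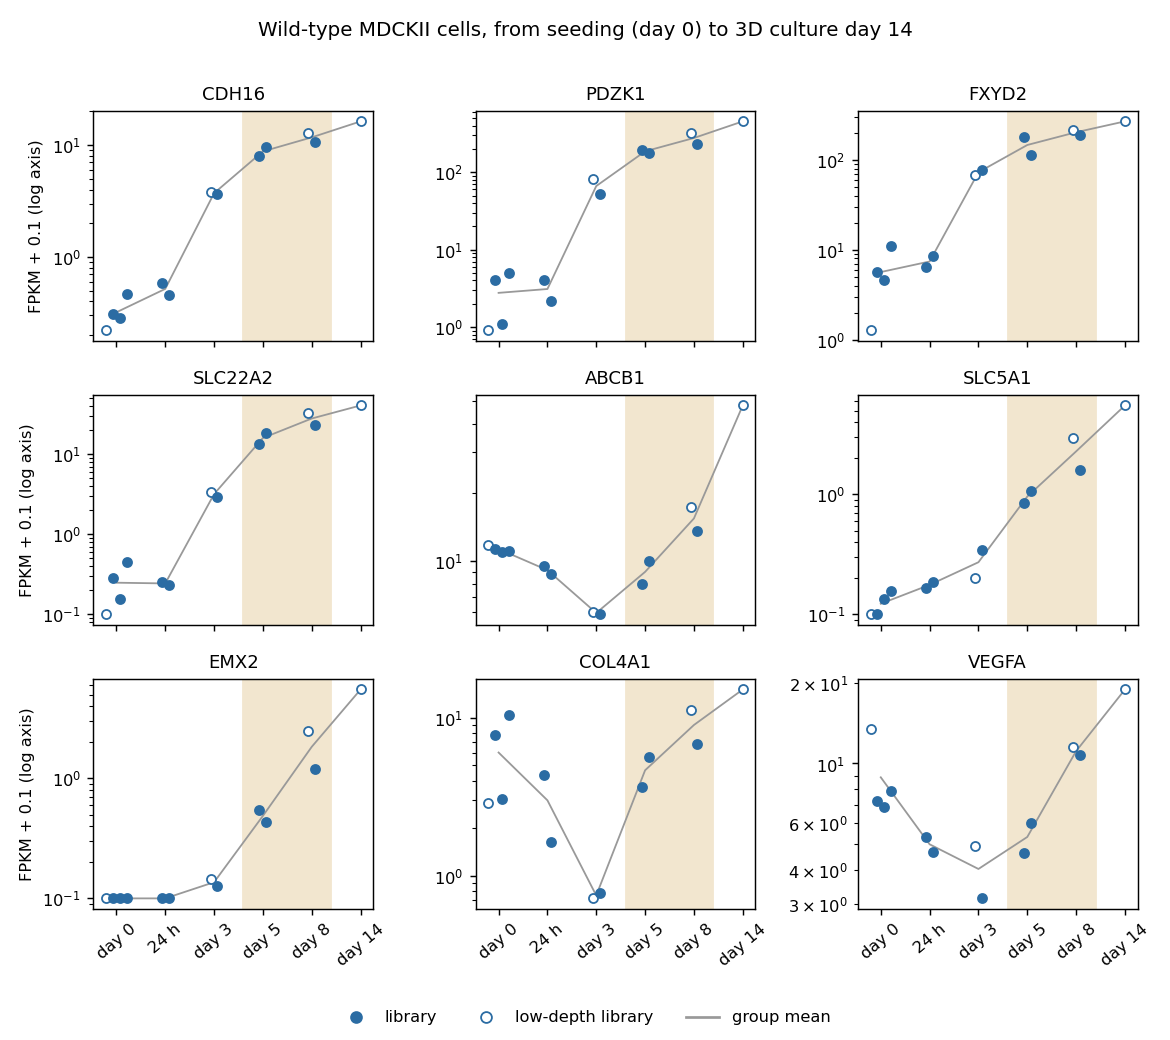
FPKM plus 0.1 on a log axis for 9 genes in each wild-type library from day 0 to 3D day 14, drawn as in the plot of VIM; open points are low-depth libraries and the shaded band holds day 5 and day 8. In the 9 panels both day 8 libraries lie above both day 5 libraries and the single day 14 library lies higher still, while none of the 9 differences was called between day 5 and day 8; the open day 8 point is the higher of its pair in each panel.

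The 13 protein genes of the mitochondrial genome were higher in value at day 8, and most nuclear genes of the same complexes were not. All 13 had a log2 difference above 0 (0.24 to 2.51, median 0.63), 9 of them without overlap, against 6.98% of all genes, and none was called. Their median was 0.34 without day 8 replicate 1. ATP8, a small ATP synthase subunit, was at 1288 and 9489 FPKM at day 5 and 26850 and 14880 at day 8 (2.51 ± 0.80, adjusted p = 0.313). ND4, of complex I, was at 1897 and 3611, then 5997 and 3875 FPKM (0.88 ± 0.30), COX1, of complex IV, at 9114 and 15350, then 20310 and 14820 (0.55 ± 0.27), and ND6 at 214.6 and 354.7, then 253.7 and 421.3 (0.24 ± 0.27). The mitochondrial genome took 11.2% and 20.2% of FPKM at day 5 and 27.4% and 22.6% at day 8. Day 5 replicate 2 thus stood lowest, while day 5 replicate 3 lay close to day 8 replicate 2. A low ATP8 value was also found at 24 h in replicate 2 (2696 FPKM, against 10320 in replicate 3). The mitochondrial share did not follow a steady course, with 28.45% and 17.9% at day 3 and 14.9% at day 14. With libraries rescaled on the other genes, the median of all genes was -0.05 and 1 gene was called higher and 6 lower. Of 26 nuclear respiratory chain genes 2 were higher and 7 lower without overlap, against 6.98% and 30.4% of all genes (median -0.19). Under median-ratio scaling these counts were 2 and 6, against 15.7% and 19%. COX7C, a small subunit of complex IV, was 1 of those higher, at 5.35 and 13.3, then 22.1 and 22.3 FPKM (1.28 ± 0.40, adjusted p = 0.309).

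Secreted immune proteins were another list with a median above 0. Of 10 complement and innate secreted protein genes tested 5 were higher and 2 lower without overlap, against 6.98% and 30.4% of all genes (median 0.23, and 0.07 without day 8 replicate 1), and none was called. Under median-ratio scaling 6 were higher and 2 lower, against 15.7% and 19%. With all 4 libraries 4 of the 10 lay below 0, down to -0.72, and the members named here are among those above 0. CFI, a complement inhibitor, was at 70.5 and 61.8 FPKM, then 87.0 and 99.3, and 147.8 at day 14 (0.49 ± 0.21, adjusted p = 0.436). C3, the central complement protein, was at 2.05 and 2.06, then 5.30 and 2.94, and 11.7 at day 14 (0.71 ± 0.50), and C1S, a protease of the classical pathway, at 61.0 and 48.6, then 64.1 and 70.5, and 127.3 at day 14 (0.30 ± 0.24). WFDC2, a secreted protease inhibitor family member, was at 438.4 and 434.3, then 588.1 and 512.7, and 827.1 at day 14 (0.33 ± 0.18). The chaperone clusterin, CLU, was at 2878 and 2732, then 3173 and 3224, and 5316 at day 14 (0.19 ± 0.26).

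Signalling genes stood on either side. VEGFA, the vascular growth factor, was at 4.54 and 5.91 FPKM at day 5, then 11.4 and 10.7 at day 8 and 18.8 at day 14 (0.96 ± 0.31, adjusted p = 0.320), and the 15 hypoxia response genes with which it was listed had a median of -0.05. The receptors FGFR2 (37.9 and 42.7, then 55.4 and 43.8 FPKM, 0.28 ± 0.24) and FGFR3 (16.5 and 20.9, then 25.0 and 20.9, 0.29 ± 0.28) were higher by little more than their standard errors. BMP4, a ligand of the BMP pathway, was at 2.14 and 1.83, then 0.787 and 0.814 FPKM (-0.73 ± 0.20, adjusted p = 0.265), and passed the filter only through day 5. Lower values were also those of the epidermal growth factor gene EGF, at 75.5 and 90.3, then 55.6 and 56.9 FPKM (-0.55 ± 0.22). LTBP1 was the single gene called among 18 TGF-beta, activin and BMP genes (median -0.22). IL1RL1, the interleukin-33 receptor, was at 10.6 and 11.5, then 4.54 and 5.66 FPKM (-0.99 ± 0.33, adjusted p = 0.341), and the chemokine gene CCL2 at 7.33 and 5.12, then 1.498 and 1.791 (-1.44 ± 0.79). Of 17 NF-kB targets and cytokines 2 were higher and 8 lower without overlap, against 6.98% and 30.4% of all genes. The counts were the same under median-ratio scaling, against 15.7% and 19%. TXNIP, an alpha-arrestin that limits glucose uptake, was at 453.0 and 420.6, then 403.5 and 350.5 FPKM (-0.21 ± 0.28, adjusted p = 0.798).

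The DENN family, whose proteins activate RAB GTPases, is the family targeted by the knockdowns elsewhere in the study. Of 20 members tested none was called, and 9 were lower and 1 higher without overlap, against 30.4% and 6.98% of all genes. Their median was -0.17, against -0.11 for all genes. Under median-ratio scaling 6 were lower and 1 higher, against 19% and 15.7% of all genes. DENND5A was at 5.47 and 5.33 FPKM at day 5, then 3.87 and 3.86 at day 8 and 5.61 at day 14 (-0.40 ± 0.15, adjusted p = 0.365). AVL9 was at 15.6 and 16.9, then 14.5 and 11.8, with 15.1 at day 14 (-0.29 ± 0.17, adjusted p = 0.531). DENND2C was at 2.55 and 1.81, then 1.37 and 0.869 FPKM (-0.59 ± 0.25), and DENND6B, the member higher without overlap, at 5.00 and 6.85, then 7.87 and 8.56 (0.42 ± 0.18). In all, 5 of the 20 had a log2 difference above 0.

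Housekeeping groups gave no calls, and most medians lay close to that of all genes. Sterol synthesis had a median of -0.04 (21 tested), cytosolic ribosomal proteins 0.08 (15), mitochondrial ribosomal proteins -0.11 (30), the proteasome -0.14 (22), primary cilium genes -0.07 (36), endoplasmic reticulum chaperones -0.12 (20) and RNA splicing -0.11 (33). Lysosome and proton pump genes (39, median -0.20) were lower without overlap in 21 and higher in 1, against 30.4% and 6.98% of all genes. Under median-ratio scaling they were lower in 14 and higher in 3, against 19% and 15.7%. Interferon-stimulated genes (24, median -0.23) were lower without overlap in 12 and higher in 1, against the same 30.4% and 6.98%. Under median-ratio scaling they were lower in 9 and higher in 3, against 19% and 15.7%.

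**Figure D4:**
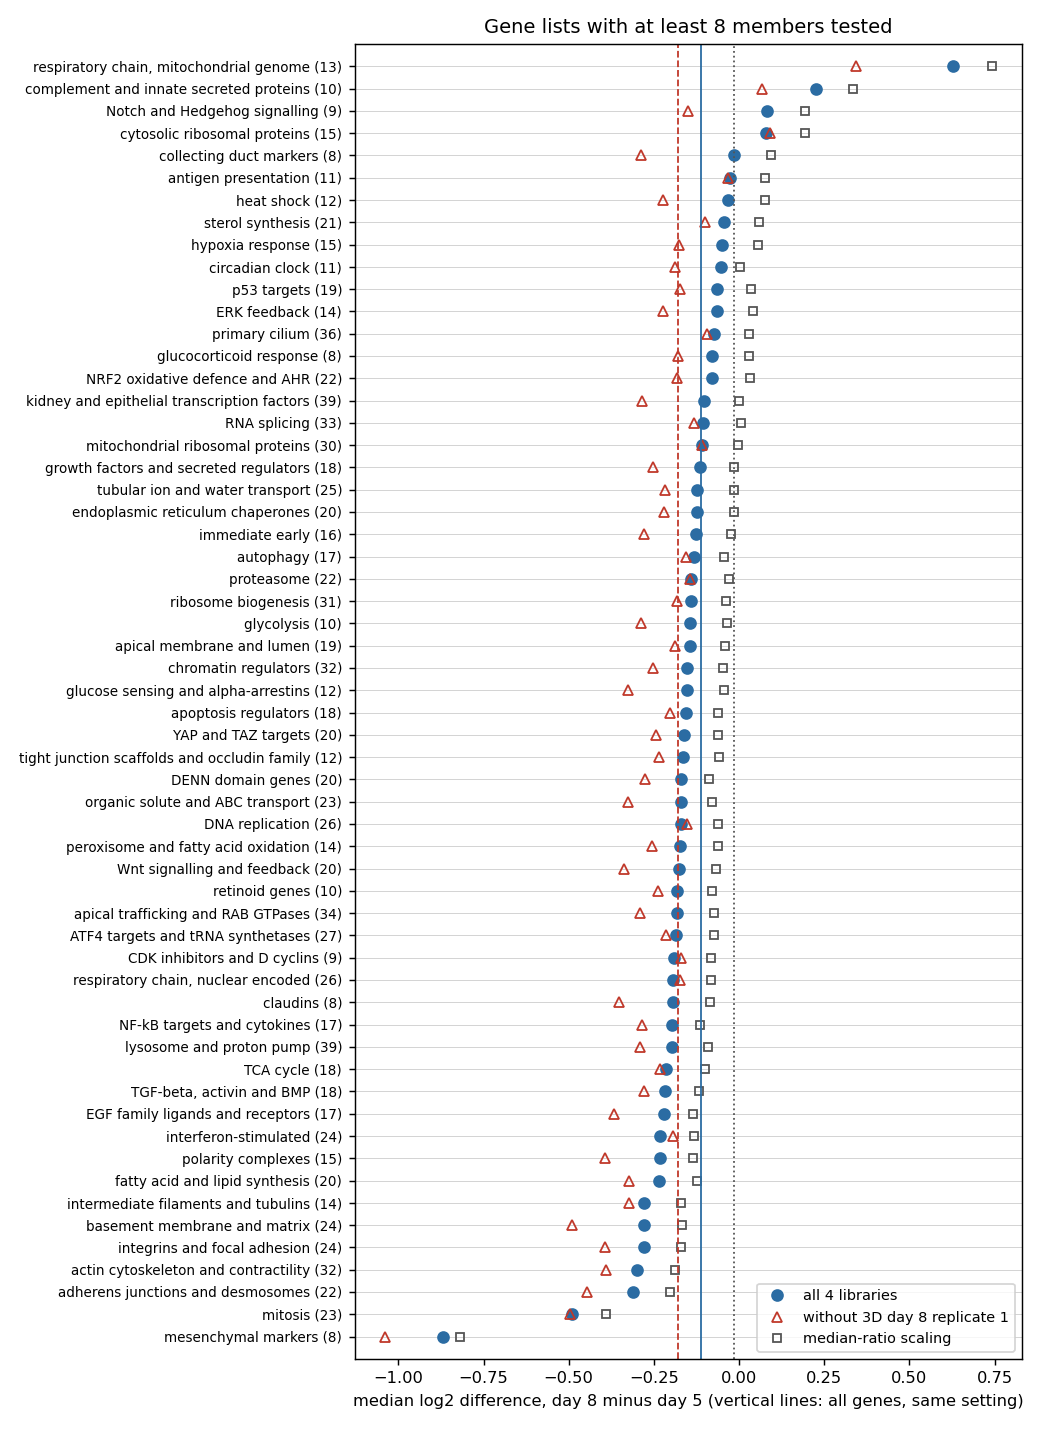
Median log2 difference, day 8 minus day 5, of each gene list with at least 8 members tested (the number in brackets), with all 4 libraries (filled circles), without day 8 replicate 1 (triangles) and under median-ratio scaling (squares); vertical lines give the median of all genes in the same setting. Mesenchymal markers (-0.87) and mitosis genes (-0.49) lie lowest and the mitochondrial genome (0.63) highest in all 3 settings, and most lists lie close to their line.

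The day 14 library, a single sample of low relative depth described without a test, was higher than the day 8 mean by a median of 0.15 over all genes. Against that, the median of mitosis genes was -0.31, that of complement genes 0.70 and that of the mitochondrial genome -0.80. Of the genes called, VIM, LTBP1 and CD109 had their lowest 3D value there. CDH1, TJP1 and DENND5A, by contrast, were above both day 5 libraries at day 14.

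Values at day 8 replicate 1 and replicate 2 differed with a standard deviation of 0.49 in log2 over all genes (median 0.15, replicate 1 higher), and in 269 genes by more than 1. The 2 day 5 libraries differed with a standard deviation of 0.40, and 161 genes differed by more than 1. Leaving out day 8 replicate 1 left 3 genes called, all lower, and leaving out replicate 2 gave 13, 4 higher and 9 lower. The lower values of CD109 (-1.20), LTBP1 (-1.38), GPNMB (-1.93) and CAPG (-0.81) were nearly the same without replicate 1, while EMX2 (0.60), SLC5A1 (0.42) and CD24 were smaller.

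Whether these genes differed alike in a flat epithelium was asked by setting the difference between 3D day 8 and day 5 against that between 2D day 11 and day 4, 2 intervals that share no library but differ in length. VIM, LTBP1, CD109, GPNMB and mitosis genes were relatively lower in the 3D interval. These genes had already been described for their lower values in 3D, and the same 3D libraries enter this comparison, which favours that direction. This interaction was called for 338 genes (3.16%), 17 higher (0.159%) and 321 lower (3%) in 3D relative to 2D. Under quantile normalization the split was 87 higher and 144 lower, and under median-ratio scaling 61 and 133. Leaving out 1 library gave 6 genes (without 3D day 5 replicate 2) to 775 (without 2D day 11 replicate 3). The difference between the intervals was -2.09 for VIM (adjusted p = 0.00426), -1.53 for LTBP1 (0.00464), -1.05 for CD109 (0.0113) and -3.79 for GPNMB (0.00426). GPNMB in 2D was at 10.53 to 21.83 FPKM at day 4 and at 27.1 to 93.1 at day 11, opposite to its course in cysts. The lower interactions largest in size at 5 FPKM or more were those of GPNMB, VIM, MT1E, a metallothionein (-2.52), CTSK, a lysosomal protease (-2.02), and KIF20A, a mitotic kinesin (-1.89). Those higher were ATP8 (4.08), GADD45G, a growth arrest gene (2.43), COX7C (1.94), MLXIPL, the glucose-responsive factor ChREBP (1.10), and the DNA polymerase POLI (0.71). At 2D day 11 replicates 1, 2 and 3 gave ATP8 2417, 1579 and 9797 FPKM and COX7C 7.72, 5.32 and 14.0. GADD45G was at 5.05, 4.75 and 13.1 there. In each of these genes replicate 3 lay near the 2D day 4 libraries. ATP8 and COX7C were likewise low in 3D day 5 replicate 2. Among the lower interactions, replicate 3 of 2D day 11 was the lowest and nearest to 2D day 4 for CTSK (60.4, 67.9 and 18.9 FPKM), GPNMB (87.9, 93.1 and 27.1) and KIF20A (8.52, 8.63 and 5.12). For VIM, LTBP1, CD109 and MT1E replicate 3 was not the lowest. Whether this split between libraries has a part in these values was not tested.

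Mitosis genes stood out in that contrast: 19 of 23 were called lower, against 3% of all genes. In 2D their median log2 difference from day 4 to day 11 was 0.99, against -0.49 in the 3D interval, and the median interaction was -1.48. MKI67 averaged 4.94 FPKM at 2D day 4 and 11.3 at 2D day 11 (interaction -1.72, adjusted p = 0.0281), and PRC1 4.50 and 10.3 (-1.62, adjusted p = 0.00817). How many were called hung on single libraries: none without 3D day 5 replicate 2 or with these groups fitted alone, 7 and 3 without either day 8 library, 1 without 2D day 4 replicate 3 or 2D day 11 replicate 1 or 2, and 12 to 23 in the other alternatives. The interaction of each mitosis gene tested was below 0 in all of them. Of 26 DNA replication genes 8 were called lower, of 32 actin genes 7 and of 14 intermediate filament and tubulin genes 4. These calls hung on single libraries too. Without 2D day 4 replicate 3, or 2D day 11 replicate 1 or 2, the counts were 0, 0 and 1. With these groups fitted alone each count was 0.

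**Figure D5:**
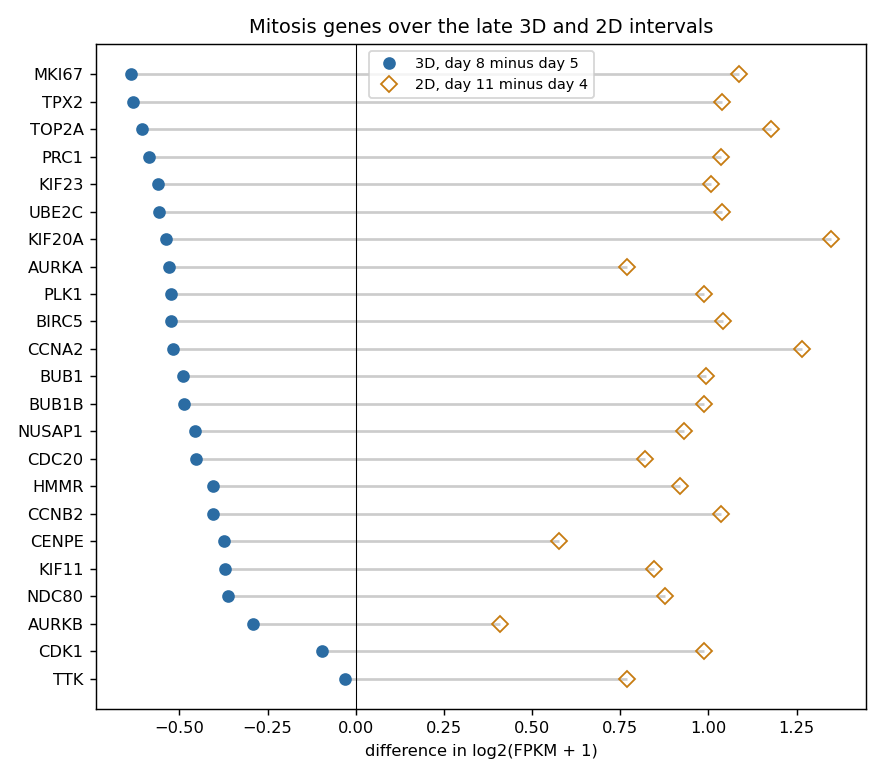
Log2 difference of each of the 23 mitosis genes tested in 3D, day 8 minus day 5 (filled circles), and in 2D, day 11 minus day 4 (open diamonds), ordered by the 3D value. All 3D values lie at or below -0.03 and all 2D values above 0; grey lines join the pair of a gene.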

How the data were processed

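The authors deposited 1 FPKM table per library, made per the labels from stranded mRNA libraries; the submitters' processing notes name the tools HISAT2 2.1.0 and Cufflinks 2.2.1 and the builds CanFam3.1 and canFam3. Further scaling between libraries is not given in the sources used here. A group-means model with limma's trend option (version 3.58.1, R 4.3.3) was fitted to log2(FPKM + 1) of the 29 libraries (16 residual degrees of freedom), genes needing 1 FPKM in at least 2 of the 4 libraries, 2-sided, with Benjamini-Hochberg adjustment over 10696 genes. No pair of libraries was identical. The comparison, the gene lists and the set of low-depth wild-type libraries (relative depth under 0.75) were chosen with earlier results of these data known. Genes named by rule were the 15 largest called differences in each direction at 5 FPKM or more without overlap, up to 5 called members of each list, 22 genes always reported, and the 5 largest called interactions in each direction; other genes were chosen after their values were seen. Lists were described by counts and medians, with no set test. Alternatives were the pseudocount (0.1 and 5), the filter (none, 5 FPKM), quantile and median-ratio scaling, the groups alone, a low-depth term, a replicate block and leaving out each library; leaving out the low-depth libraries and rescaling without mitochondrial genes were added after seeing the data. The fit was checked on simulated data. No sequences or coordinates were used. Some genes of the lists are not reported here.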

Additional observations from a re-analysis of the deposited data

Results flagged for a closer look

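The 3D interval from day 5 to day 8 and the 2D interval from day 4 to day 11 differed by limma's interaction test (adjusted p under 0.05) for the genes below, each given as the 3D minus the 2D log2 difference. The intervals last 3 and 7 days, and whether their length has a part in these values was not tested. Genes described above for their 3D difference enter here with the same 3D libraries, which favours the same sign.

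Among genes also called between 3D day 5 and day 8, the value was -1.05 for CD109, -1.53 for LTBP1, -2.09 for VIM and 2.40 for ENSCAFG00000030098, which was near 0 in 2D and passed the filter on low values only through 3D day 8, so that its sign was favoured by its selection. Next to these stood GPNMB (-3.79), CAPG (-1.24), ANXA10 (-1.64), RAB31 (-1.42) and RIMBP2 (0.90), of which RIMBP2 also passed the filter only through 3D day 8. Cell division gave MKI67 (-1.72), TOP2A (-1.78), KIF20A (-1.89), PRC1 (-1.62), TPX2 (-1.67) and CCND2 (-1.49).

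Adhesion and cytoskeleton gave ITGA2 (-0.94), CD44 (-0.88), COL17A1 (-1.11), DSC3 (-1.14), ACTN1 (-1.18), FLNA (-0.92) and TPM4 (-1.06). The fibroblast list's FBLN1, which passed only through 3D day 5, was at -1.81 and the endothelial list's FLT1 at -0.91. Other lower values were those of MT1E (-2.52), CTSK (-2.02) and DENND5A (-0.71). Higher in 3D were ATP8 (4.08), GADD45G (2.43), COX7C (1.94), MLXIPL (1.10), SLC5A1 (0.86) and POLI (0.71), and SLC5A1 too had passed only through 3D day 8. ATP8, GADD45G and COX7C differed widely between the 2D day 11 libraries.

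The calls differed in how many alternatives kept them. VIM, LTBP1 and GPNMB passed in 20 of 21 alternatives and CD109, CAPG and PRC1 in 19 of 21. CTSK passed in 4, DENND5A, MT1E and POLI in 5, CCND2 and FLT1 in 6 and CD44, COX7C and MLXIPL in 7 of 21.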

How the results depend on the processing

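Between 3D day 8 and day 5, 4 genes were called. The count was 15 with a pseudocount of 0.1, 12 without a filter on low values, 12 under quantile normalization, 7 under median-ratio scaling, 8 with a term for low-depth libraries (day 14 left out), 1 without the low-depth wild-type libraries and 7 with libraries rescaled without mitochondrial genes. Leaving out 1 library gave 1 to 13 genes: 1 without day 5 replicate 2, 3 without day 5 replicate 3, 3 without day 8 replicate 1 and 13 without day 8 replicate 2, the remaining library of the group being assumed to vary like the other groups. The interaction with the 2D interval, called for 338 genes, was called for 155 with a pseudocount of 5, 194 under median-ratio scaling, 2 with its groups fitted alone and 124 with libraries rescaled without mitochondrial genes. Leaving out 1 library gave 6 to 775: 6 without 3D day 5 replicate 2, 46 and 56 without day 8 replicate 1 and 2, 16 without 2D day 4 replicate 3, 9 and 10 without 2D day 11 replicate 1 and 2 and 775 without 2D day 11 replicate 3. Of the values of single named genes under an alternative, 1916 stayed on their side of the threshold within 1 standard error if uncalled, 309 kept their direction and lost the call, 31 gained it, 134 uncalled ones moved further, and none changed sign in a call. The cause of these shifts was not tested.

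No paired analysis was possible because 3D day 5 (replicates 2 and 3) and day 8 (replicates 1 and 2) share only 1 replicate number. With the replicate number as a block over the wild-type libraries, 10 genes were called between the days and 783 in the interaction.

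Depth is unknown beyond its relative value, so values at or near 0 carry no limit. With 2 libraries a group, only differences large against the spread were called, and a difference that missed the threshold is not shown to be absent. The planned description of promoter motifs was not run, since no promoter sequences were used here.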

Other observations

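Some abundant genes were listed at 0 in single libraries. SPP1, the secreted phosphoprotein osteopontin, was at 0 and 15490 FPKM at day 5, at 20240 and 0 at day 8 and at 26040 at day 14. It was listed at 0 in these 2 of the 29 libraries only, with 14010 and 15430 FPKM at day 3, so its log2 difference (0.19 ± 3.14) says nothing of its level. FAM195A was at 6.10 and 9.12 FPKM at day 5, listed at 0 in both day 8 libraries and at 10.3 at day 14 (adjusted p = 0.211), and it passed the filter only through day 5. Of the 4 libraries compared, 21 genes were listed at 0 in at least 1 and at 50 FPKM or more in another.

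GADD45G, which had a higher difference in the 3D than in the 2D interval, was at 3.20 and 4.00 FPKM at day 5, at 19.2 and 7.24 at day 8 and at 4.36 at day 14, so the day 8 libraries differed widely. Its log2 difference was 1.49 ± 0.47 (adjusted p = 0.313) and 0.85 without day 8 replicate 1. The metallothionein gene MT1E was at 27.1 and 18.2, then 21.8 and 13.3 FPKM in 3D, and averaged 23.1 at 2D day 4 and 113 at 2D day 11.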
